A study of Caenorhabditis elegans with 48 samples.

Results

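The strain JTL621 was compared with the strain CA1199, both of them on ethanol plates and not heated. The 2 groups were chosen by their labels alone and hold 6 of the 48 libraries of the series, 3 for each strain. JTL621 carries hsf-1::aid::gfp on chromosome I, which adds an auxin-inducible degron and GFP to HSF-1 at its own gene. CA1199 has the hsf-1 gene without that tag. Both strains carry unc-119(ed3) on chromosome III and the transgene ieSi38 on chromosome IV, in which the sun-1 promoter drives TIR1 fused to mRuby in the germline and a Caenorhabditis briggsae unc-119 copy marks the insertion. The animals were young adults of Caenorhabditis elegans, synchronised by bleaching, raised for 51 h from the first larval stage, moved to ethanol plates (the solvent of auxin) for 2 h and collected without heat shock. Poly(A) RNA of whole worms was sequenced in directional libraries. The other 18 libraries of the 2 strains gave a second look at the strain difference. They were on auxin plates, or heat-shocked at 34 °C for 30 min on either plate. In them heat, and auxin that targets HSF-1 in the JTL621 germline, act along with the strain. The somatic strains JTL611 (tagged hsf-1) and CA1200 (no tag), whose TIR1 is driven by eft-3, served for comparison.

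HSF-1 is the conserved transcription factor that turns on chaperone genes in heat, and in C. elegans it also acts without heat in development and in the germline. TIR1 comes from plants, where it recruits proteins with a degron to a ubiquitin ligase once auxin binds. On ethanol no auxin is present, so the comparison asks how basal expression differs between the strain with tagged HSF-1 and its TIR1-only control. The strains differ by the tag and by whatever else separates their backgrounds, and these cannot be told apart here. In whole worms a change in the number of cells of a type cannot be told apart from a change in RNA per cell.

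The 6 libraries held 15043781 to 23504755 reads on listed genes, of which ribosomal RNA genes took 3.89% to 11.3%. In these libraries 3 reads, the limit that a count of 0 allows at 95% confidence for counting error alone, correspond to 0.127 to 0.195 CPM (counts per megaread, a read count scaled for the size of its library). The 2 deposited tables list 12801 genes for JTL621 and 12742 for CA1199, and 12571 genes are in both. Germline markers were present in both strains. The summed level of 26 meiosis and mitotic germline genes was 2150 to 2350 CPM in JTL621 libraries and 2194 to 2428 CPM in CA1199 libraries. That of 29 major sperm protein genes was 2012 to 2117 CPM in JTL621 and 1964 to 2261 CPM in CA1199, and that of 6 vitellogenin genes, made by the adult hermaphrodite intestine, was 45083 to 53192 CPM in JTL621 and 43952 to 52970 CPM in CA1199. The labels do not say whether replicates were separate cultures, so p-values measure the spread between libraries. Tests between the 2 strains took this spread from all 24 of their libraries, those on auxin and after heat shock included.

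Basal expression of the 2 strains was close. Of 12218 genes tested, 0 (0%) differed at an adjusted p under 0.05 by limma, and 0 by limma-voom on the recovered reads. At an unadjusted p under 0.05 the limma count was 210 (1.72%), of which 151 (1.24%) were higher in JTL621 and 59 (0.483%) were lower, and limma-voom gave 264. The limma share lies below the 0.05 that a calibrated test gives without any difference. The test may thus be strict, and 0 calls do not show equal expression. The median log2 difference, JTL621 minus CA1199, was 0.0044, and the central 90% of genes lay between -0.20 and 0.29. The 95% interval of the difference lay within a 2-fold change in either direction for 11870 genes (97.2%). A difference beyond 2-fold was fitted for 68 genes, 67 of them higher in JTL621. A limma fit of the 6 libraries alone also called 0 genes, with 437 of 12164 at an unadjusted p under 0.05. Same-numbered libraries of the 2 groups deviated together, a pattern of the values that the labels do not state. A fit of the 6 libraries paired for that pattern called 0 genes as well. It gave 1024 genes at an unadjusted p under 0.05 and a smallest adjusted p of 0.0524.

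**Figure D1:**
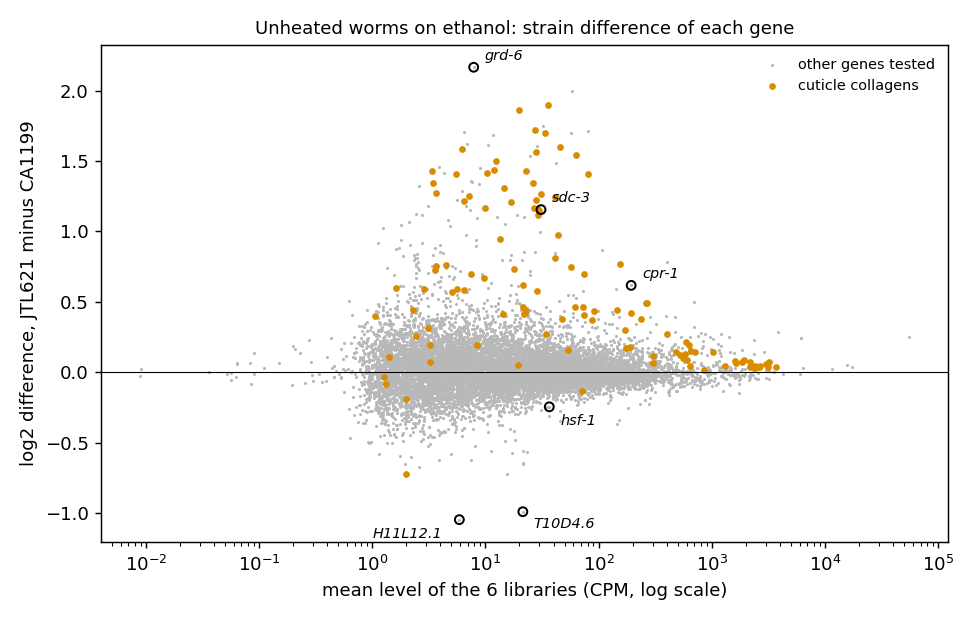
Each point is 1 of the 12218 genes tested. The x axis is the mean level of the 6 libraries in CPM on a log scale, and the y axis is the log2 difference, JTL621 minus CA1199. Orange points are the 114 cuticle collagen genes and circled points are genes named in the text. The cloud centres on 0, and the points beyond 1 lie above the line with the exception of H11L12.1 at -1.05.

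A second description used only the order of the libraries. All 3 JTL621 libraries lay above all 3 CA1199 libraries for 577 genes (4.72%) and below them for 325 genes (2.66%). With 3 libraries on each side, random order alone also separates some genes, so a lack of overlap is a description and no test. This split depends on the common scale: on the deposited scales of the 2 tables, without rescaling, it was 377 higher and 648 lower, with quantile normalisation 477 and 475, and with total reads other than ribosomal RNA 511 and 365. The scale moved the median of all genes to -0.05 at the lowest, so differences of a few hundredths carry no direction.

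The tagged gene hsf-1 was measured at 30.1, 35.1 and 35.2 CPM in the JTL621 libraries, against 36.4, 39.5 and 43.8 CPM in the CA1199 libraries. The groups did not overlap and averaged 33.5 ± 2.92 CPM in JTL621 and 39.9 ± 3.71 CPM in CA1199 (SD, n = 3 each). The log2 difference was -0.25 (95% interval -0.59 to 0.10) and did not pass the test (limma, unadjusted p = 0.152, adjusted p = 1). In the mean of the 3 other conditions it was -0.33 (SE 0.10, adjusted p = 0.232). On the scale shared by 4 strains the unheated ethanol libraries of JTL611, which has the same tag, averaged 38 ± 1.53 CPM, against 42.4 ± 1.86 CPM in CA1200. The 2 genes whose regulatory or coding sequence is in the TIR1 transgene overlapped between the strains. The sun-1 gene, which encodes a nuclear envelope protein of the germline, had 78.0, 77.5 and 84.1 CPM in JTL621, against 87.7, 75.5 and 86.2 CPM in CA1199. Counts by gene cannot separate the endogenous sun-1 gene from any transgene reads that match it. The neuronal gene unc-119 had 1.64, 1.43 and 1.58 CPM in JTL621, against 1.37, 1.5 and 1.81 CPM in CA1199.

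Of the genes of smallest p, sdc-3 stood out on the side of JTL621. SDC-3 is a zinc finger protein of hermaphrodite sex determination and X-chromosome dosage compensation. The gene lies on chromosome V (WBcel235 V:15039148-15048207, minus strand). It had 34.5, 55.9 and 39.9 CPM in JTL621 libraries, against 19, 19.5 and 17.2 CPM in CA1199 libraries. Every JTL621 library was above every CA1199 library. The log2 difference was 1.15 (SE 0.26, 95% interval 0.61 to 1.70), and limma gave an unadjusted p of 0.000227 that did not survive adjustment over all genes (adjusted p = 1).

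Libraries outside this comparison gave the same direction for sdc-3. The log2 difference was 1.48 on auxin without heat (adjusted p = 0.0705), 1.96 after heat shock on ethanol (adjusted p = 0.00247) and 1.29 after heat shock on auxin (adjusted p = 0.0855). The mean of these 3 conditions was 1.58 (SE 0.15, limma adjusted p = 8.7e-06), higher in JTL621, and it passed under all 28 alternatives. Over the 4 strains on 1 scale, the 12 JTL621 libraries held 34.2 to 80.6 CPM of sdc-3 and the 36 libraries of the other strains 7.65 to 33.4 CPM. The somatic pair showed a log2 difference of 0.00 between JTL611 and CA1200. The test of the germline pair minus the somatic pair gave 1.16 and did not pass (adjusted p = 1).

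Near sdc-3, 23 other genes within 50 kb were tested. Their log2 differences ranged from -0.62 to 0.56. Without overlap 1 of them was higher and 0 lower, beside 4.72% and 2.66% of all genes. The higher gene is an annotated pseudogene, WBGene00007721 (V:15032142-15034069), with 1.91, 2.86 and 3.32 CPM in JTL621 and 1.13, 1.81 and 1.54 CPM in CA1199. Its log2 difference was 0.56 (unadjusted p = 0.0303), and 0.94 in the mean of the 3 other conditions (adjusted p = 0.00205). Reads that a pseudogene shares with a related gene cannot be assigned from these tables. The gene between them, melo-3, had a log2 difference of -0.22 and overlapped between the strains.

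On the other side, H11L12.1 had the smallest p of all genes. It lies near the right end of the X chromosome (X:17710285-17711698, minus strand). It had 2.40, 3.81 and 4.14 CPM in JTL621, against 5.95, 7.63 and 11.4 CPM in CA1199. The groups did not overlap, and the log2 difference was -1.05 (SE 0.22, 95% interval -1.51 to -0.59; limma unadjusted p = 0.000113, adjusted p = 1). In the mean of the 3 other conditions the gene fell by 1.07 on the log2 scale in JTL621 (SE 0.13, adjusted p = 0.000206), and it passed under all 28 alternatives. On 1 scale, the 12 JTL621 libraries held 2.38 to 4.70 CPM and the 36 libraries of the other 3 strains 5.66 to 13.5 CPM. The germline pair minus the somatic pair was -1.24 (adjusted p = 0.287), which did not pass.

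Further toward the chromosome end lies cTel55X.1 (X:17714961-17718726, plus strand), the 1 gene with a mean of at least 5 CPM that was listed for only 1 of the 2 strains. It had 5.79, 9.81 and 9.31 CPM in the unheated ethanol libraries of CA1199. It was also listed for the somatic strains, at 4.82 to 7.31 CPM in the 12 libraries of JTL611 and 4.22 to 6.82 CPM in the 12 of CA1200. The levels of cTel55X.1 are on the deposited scale of each strain, without rescaling. No value of it in JTL621 was analysed here, so no fold is given. The 3 other tested genes within 50 kb of H11L12.1 were cgt-2, T23E7.2 and nlp-6. Their log2 differences were 0.12, -0.16 and -0.14, and each overlapped between the strains.

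The third gene was T10D4.6 on chromosome II (II:3119332-3123183, plus strand), and here CA1199 was the strain that stood apart. It had 11.8, 13.7 and 15.8 CPM in JTL621, against 25.6, 21.8 and 39.8 CPM in CA1199. The groups did not overlap, with a log2 difference of -0.99 (SE 0.25, 95% interval -1.51 to -0.47; limma unadjusted p = 0.000707, adjusted p = 1). In the mean of the 3 other conditions T10D4.6 fell by 1.18 on the log2 scale in JTL621 (SE 0.14, adjusted p = 0.000206), and it passed under all 28 alternatives. On 1 scale the 12 CA1199 libraries held 18 to 42.6 CPM and the 36 libraries of JTL621, JTL611 and CA1200 held 8.26 to 21.5 CPM, so these ranges overlapped at their ends. Of 6 other genes within 50 kb, 1 was higher without overlap and 0 lower, beside 4.72% and 2.66% of all genes.

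**Figure D2:**
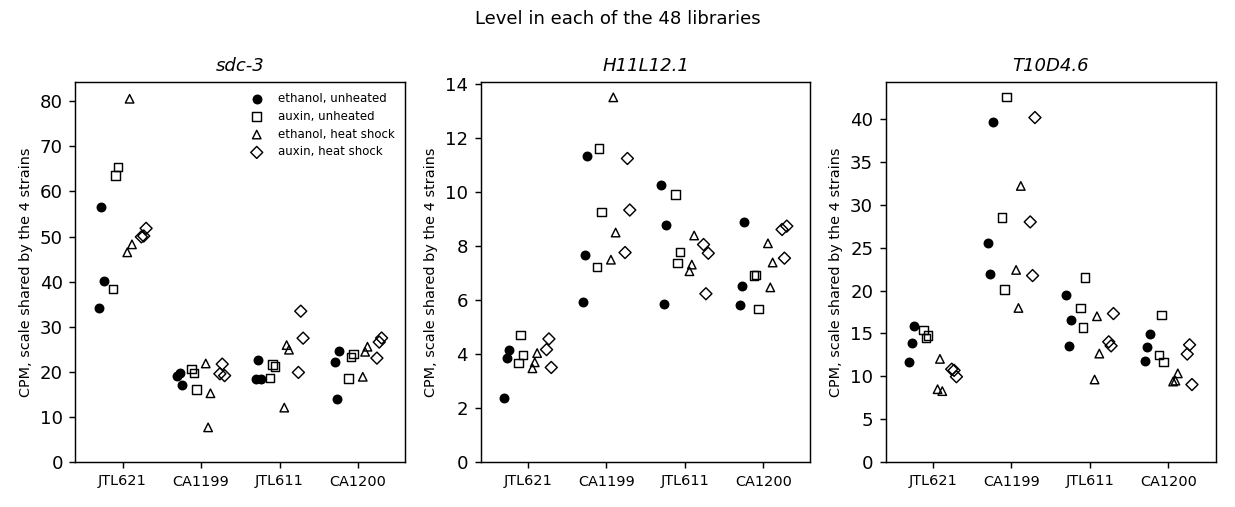
Level of sdc-3, H11L12.1 and T10D4.6 in each of the 48 libraries, in CPM on a scale shared by the 4 strains, with strains along the x axis. Filled circles are the unheated ethanol libraries, and open symbols are the other conditions. JTL621 lies above every other strain for sdc-3 (lowest 34.2 CPM) and below every other strain for H11L12.1 (highest 4.70 CPM), whereas CA1199 is the high strain for T10D4.6.

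Taken singly, the other conditions gave few called genes. On auxin without heat limma called 1 gene (0.00818%, lower in JTL621), with 6.52% of genes at an unadjusted p under 0.05, and limma-voom called 0 (746 at that p). The gene, C55C3.3, differed by -1.10 there (adjusted p = 0.0403) and by -0.53 on unheated ethanol, where it had 7.25, 6.2 and 5.66 CPM in JTL621, against 7.02, 12.4 and 10 CPM in CA1199, overlapping. After heat shock on ethanol 5 genes (0.0409%) were called, all higher in JTL621, with 6.44% at an unadjusted p under 0.05. After heat shock on auxin 8 (0.0655%) were called, 3 (0.0246%) higher and 5 (0.0409%) lower, with 7.82% at an unadjusted p under 0.05. Replicate 2 of JTL621 in that last condition stood apart, with 34.5% of its reads on ribosomal RNA, and without it 3 genes were called.

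The genes sdc-3, H11L12.1 and T10D4.6 and the pseudogene WBGene00007721 were the 4 genes whose 12 JTL621 libraries did not overlap the 12 CA1199 libraries, 2 higher in JTL621 (0.0164% of genes tested) and 2 lower (0.0164%). The strain difference averaged over the 3 other conditions, a contrast chosen after the data were seen, called 37 genes (0.303%), of which 21 (0.172%) were higher and 16 (0.131%) lower in JTL621. Without replicate 1 of unheated JTL621 on auxin the count was 112. In 2 of these 3 conditions auxin was present, so HSF-1 was targeted for degradation in the germline of JTL621 there. At an unadjusted p under 0.05 that contrast gave 7.91% of genes. Among the 577 genes that were higher without overlap on unheated ethanol, 5 were called in the same direction by it and 1, gly-8, in the other. Among the 325 lower genes, 5 were called in the same direction and 0 in the other.

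Beyond the 4 genes above, the shared genes were 3 on the higher side and 3 on the lower. cpr-4, a cathepsin B-like cysteine protease gene, had 350, 331 and 409 CPM in JTL621, against 304, 252 and 303 CPM in CA1199. Its log2 difference was 0.34 (SE 0.09, unadjusted p = 0.00155) here and 0.30 in the other conditions (adjusted p = 0.0111), a call lost on the deposited scales and with quantile normalisation. T03D3.5 differed by 0.47 here and by 0.49 in the other conditions (adjusted p = 0.0111), which passed under all 28 alternatives. B0410.3 differed by 0.17 here and by 0.45 in the other conditions (adjusted p = 0.0387), and leaving out any 1 of 14 of the 18 libraries ended that call. On the lower side W03F9.1 differed by -0.13 here and -0.24 in the other conditions (adjusted p = 0.00705, passing under all 28 alternatives). Y11D7A.7 differed by -0.41 here and -0.44 in the other conditions (adjusted p = 0.0442, lost without any 1 of 15 of the 18 libraries). The third gene, fkb-6, is a co-chaperone and is described below.

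A further pair of genes of small p was not called in the other conditions. R74.2 had 2.73, 2.30 and 2.89 CPM in JTL621, against 1.55, 0.939 and 0.745 CPM in CA1199, a log2 difference of 0.82 (SE 0.19, unadjusted p = 0.000266), and 0.03 in the other conditions (adjusted p = 0.993). cpr-1, another cathepsin B-like protease gene, had 173, 225 and 314 CPM in JTL621, against 149, 134 and 168 CPM in CA1199. Its log2 difference was 0.62 (SE 0.16, unadjusted p = 0.000725), and 0.28 in the other conditions (adjusted p = 0.323).

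Chaperone genes, the classical targets of HSF-1, showed no difference that passed in unheated worms on ethanol. Of 17 cytosolic chaperone and co-chaperone genes, 0 were higher and 2 were lower without overlap, beside 4.72% and 2.66% of all genes, and their median log2 difference was -0.04. The 95% interval of all 17 lay within a 2-fold change. The Hsp90 gene hsp-90 had 2828, 3304 and 2701 CPM in JTL621 and 3085, 3373 and 2656 CPM in CA1199, with full overlap. The constitutive Hsp70 gene hsp-1 had 2626, 3395 and 3431 CPM in JTL621 and 2794, 3518 and 3447 CPM in CA1199, and the groups likewise overlapped. The Hsp110 gene hsp-110 averaged 497 ± 71.3 CPM in JTL621 and 522 ± 59.3 CPM in CA1199 (SD, n = 3 each).

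The 2 genes lower without overlap were fkb-6 and dnj-19. fkb-6 encodes an FKBP-type immunophilin that works with Hsp90. It had 214, 257 and 247 CPM in JTL621, against 265, 287 and 268 CPM in CA1199, a log2 difference of -0.20 (95% interval -0.38 to -0.01; limma unadjusted p = 0.0371, adjusted p = 1). dnj-19, an Hsp40 gene, had 268, 293 and 273 CPM in JTL621, against 294, 316 and 299 CPM in CA1199, a log2 difference of -0.13 (unadjusted p = 0.180).

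In the other conditions 3 of the 17 chaperone genes were called lower in JTL621 and 0 higher, beside 0.131% and 0.172% of all genes, with a list median of -0.16. The Hsp40 gene dnj-13 differed by -0.40 (SE 0.05, limma adjusted p = 0.000374), made up of -0.34 on unheated auxin, -0.32 after heat shock on ethanol and -0.55 after heat shock on auxin. In unheated worms on ethanol it had 129, 148 and 144 CPM in JTL621 and 138, 172 and 153 CPM in CA1199, overlapping, with a difference of -0.14 (95% interval -0.33 to 0.05). fkb-6 differed by -0.26 in the other conditions (adjusted p = 0.0207), and the call was lost without any 1 of 7 of the 18 libraries. hsp-90 differed by -0.31 (adjusted p = 0.0387), lost without any 1 of 15 of the 18. Whether these differences exceed those on unheated ethanol was not tested. In this mean, heat and the auxin that targets HSF-1 in the JTL621 germline cannot be told apart from the strain difference.

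**Figure D3:**
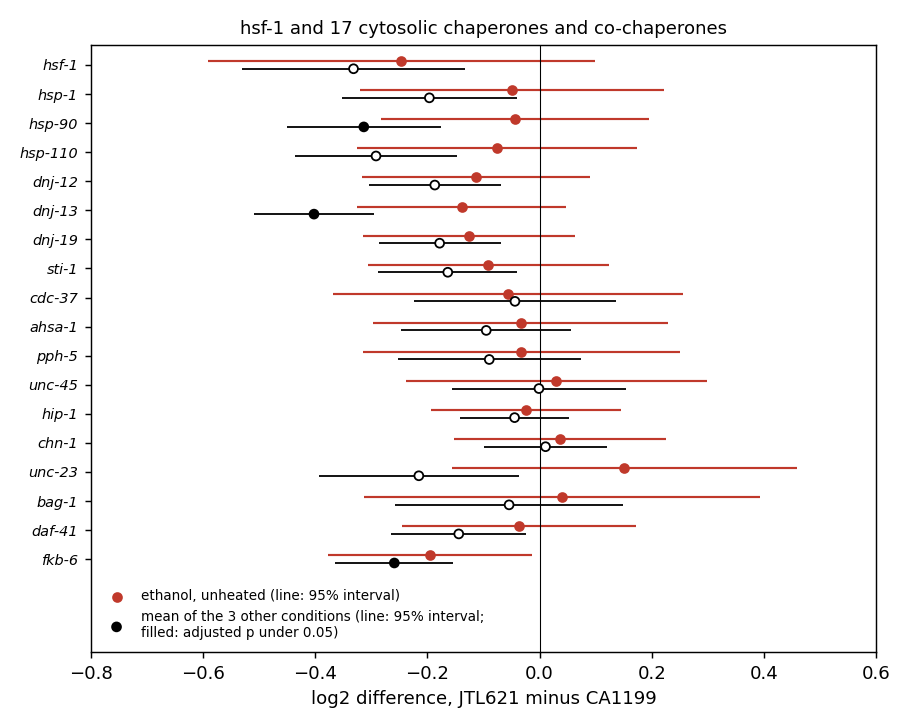
Log2 difference, JTL621 minus CA1199, of hsf-1 and the 17 cytosolic chaperone and co-chaperone genes. Red points are the unheated ethanol libraries and black points the mean of the 3 other conditions, each with its 95% interval, and filled black points passed at an adjusted p under 0.05. The red points lie between -0.25 and 0.15, and the filled black points are hsp-90, dnj-13 and fkb-6.

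The inducible heat shock genes, silent or low without stress, varied widely among the libraries of each strain, and 0 of 9 separated the strains. All 9 were fitted lower in JTL621, with a median log2 difference of -0.26 that stayed below 0 under the 3 other scalings, and 0 of 9 had an unadjusted p under 0.05. In the somatic pair 0 of 9 were positive, with a median of -0.89 in JTL611 minus CA1200. In the other conditions of JTL621 and CA1199 the median was -0.37 on unheated auxin. It was 0.02 after heat shock on ethanol, 0.06 after heat shock on auxin and -0.07 in the mean of the 3. On unheated ethanol the 9 tested genes summed to 14.6 to 157 CPM in JTL621 and to 25.5 to 88.7 CPM in CA1199. The Hsp70 gene F44E5.4 had 3.49, 4.77 and 61.0 CPM in JTL621 and 19, 8.51 and 31.5 CPM in CA1199. The high JTL621 value came from replicate 3. The Hsp70 gene hsp-70 had 0.327, 0.173 and 5.61 CPM in JTL621 and 1.61, 0.751 and 3.62 CPM in CA1199. For 6 of the 9 genes the 95% interval reached beyond a 2-fold change, so a difference of that size was not excluded at this spread. F44E5.4 and F44E5.5, the hsp-16.1 copies and the hsp-16.48 copies are near-identical pairs whose reads could have been split between them. Of 7 other small heat shock protein genes 1, hsp-12.3, was higher without overlap and 0 were lower, beside 4.72% and 2.66% of all genes. It had 2.34, 2.99 and 2.83 CPM in JTL621 and 1.55, 1.81 and 1.91 CPM in CA1199 (log2 difference 0.43, unadjusted p = 0.0467). The 14 chaperonin and prefoldin genes, which fold actin and tubulin, had 0 members without overlap and a median of -0.09.

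Germline genes, in whose tissue TIR1 is present in both strains, differed little on unheated ethanol. No member of the lists for meiosis and mitotic germline (26 genes), germ granules (20), oogenesis and eggshell (19) or major sperm proteins (29) separated the strains without overlap. Their median log2 differences were -0.03, -0.07, -0.05 and -0.06. All 94 genes of these 4 lists had a 95% interval within a 2-fold change. Among 47 spermatogenesis genes 2 were higher and 2 lower without overlap (4.26% each way), near the 4.72% and 2.66% of all genes. On the deposited scales 1 of 26 meiosis, 1 of 20 germ granule, 2 of 29 major sperm protein and 7 of 47 spermatogenesis genes were lower without overlap. On those scales 648 of all 12219 genes were lower. With quantile normalisation 5 of the 47 spermatogenesis genes were lower and 0 higher, beside 475 and 477 of all 12218 genes. With total reads other than ribosomal RNA 1 was lower and 1 higher, beside 365 and 511 of all 12221 genes. In the mean of the 3 other conditions the major sperm protein median was -0.24 and the spermatogenesis median -0.12, with 0 members called.

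Cuticle collagens, the structural proteins of the worm's exoskeleton that hypodermal cells make in pulses around each molt, had the largest median difference of the gene lists. Of 114 collagen genes 40 (35.1%) were higher in JTL621 without overlap and 0 lower, beside 4.72% and 2.66% of all genes. The count was 38 to 42 under the other scalings, beside 377 to 511 of all 12218 to 12221 genes. The median log2 difference of the list was 0.43, against 0.0044 for all genes, and 109 of 114 differences were positive. At an unadjusted p under 0.05 limma gave 6 higher genes and 1 lower, bli-1, beside 1.24% and 0.483% of all genes, and 0 passed adjustment.

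The collagen of smallest p was col-89, with 2.94, 5.94 and 7.35 CPM in JTL621, against 1.19, 1.75 and 1.33 CPM in CA1199 (log2 difference 1.34, SE 0.46, unadjusted p = 0.0083). col-88 had 39.2, 54.8 and 69.9 CPM in JTL621, against 29.0, 6.07 and 13.5 CPM in CA1199 (log2 difference 1.90, 95% interval -0.50 to 4.29). col-130 had 29.4, 36.4 and 59.9 CPM in JTL621, against 17.1, 5.76 and 14.8 CPM in CA1199 (log2 difference 1.72, 95% interval -0.09 to 3.53). In each of these genes replicate 3 was the highest JTL621 library, and replicate 2 was the lowest CA1199 library of col-88 and col-130. Their intervals are wide because collagen levels varied strongly over all 24 libraries. The summed level of the list was 49934 to 54396 CPM in JTL621 and 47621 to 50366 CPM in CA1199, which overlapped.

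Compared within replicate numbers, the median collagen difference was 0.13 for replicate 1, 0.39 for replicate 2 and 0.81 for replicate 3, and 82, 96 and 93 of the 114 genes were higher in JTL621. Without JTL621 replicate 3 the median was 0.28, and without CA1199 replicate 3 it was 0.32. That JTL621 library also held more of the abu and idpc genes than the other 2. Levels of the abu and idpc genes are on the deposited scale of each strain, without rescaling. For example abu-14 had 9.11 CPM in replicate 3 and 0.0552 and 0.0848 CPM in replicates 1 and 2, and idpc-4 had 7.46 CPM in replicate 3 and 0 in the others. The 8 listed abu and idpc genes summed to 0.718, 4.45 and 49.1 CPM in the 3 JTL621 libraries. The CA1199 table lists 2 of them (abu-13 and idpc-1), which summed to 1.16, 2.21 and 0.544 CPM. High sums were not limited to that library: the 8 genes summed to 0.361, 58.9 and 15.9 CPM in JTL621 on unheated auxin, and to 16.6 to 26.2 CPM in its 6 heat-shocked libraries, while the 2 genes listed for CA1199 summed to 30.1 to 46.3 CPM in its 6 heat-shocked libraries. The part of these genes and of that library in the collagen result was not tested beyond the values without it.

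In the other conditions the collagen median was 0.29 on unheated auxin, 0.30 after heat shock on ethanol and 0.38 after heat shock on auxin, and 0 members were called in their mean. In the somatic pair, which shares no library with this comparison, the median over 103 collagens was 0.22 in JTL611 minus CA1200, with 90 of 103 positive. The germline pair minus the somatic pair had a collagen median of 0.06.

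**Figure D4:**
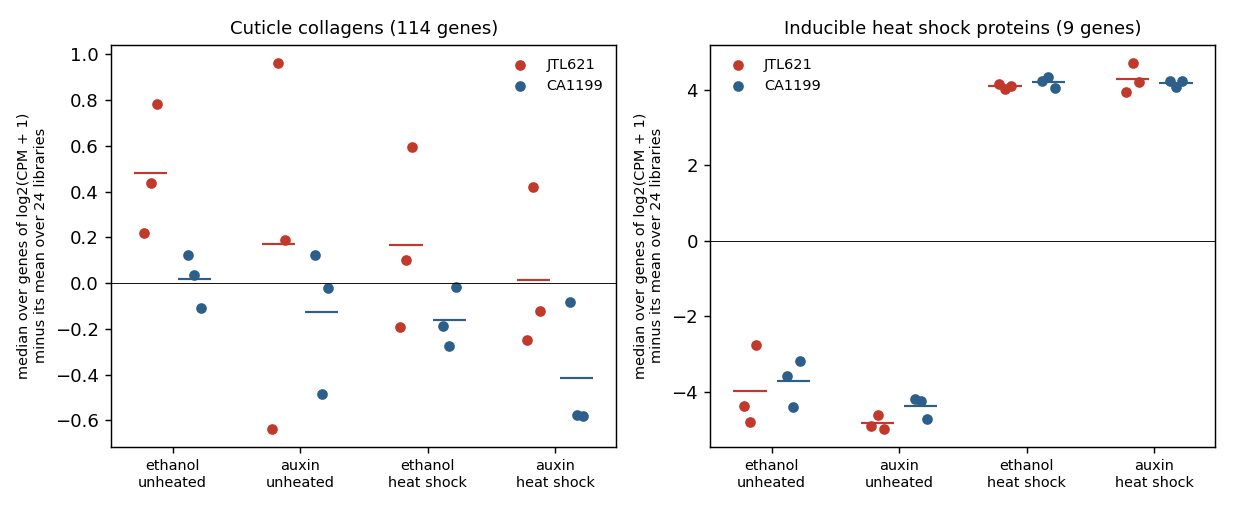
Level of the 114 cuticle collagens (left) and the 9 inducible heat shock proteins (right) in the 24 libraries of JTL621 (red) and CA1199 (blue). Each point is 1 library, plotted as the median over genes of log2(CPM + 1) minus the gene's mean over 24 libraries, and short lines are group means. On unheated ethanol the collagen points of JTL621 are 0.22, 0.44 and 0.78 and those of CA1199 0.12, 0.03 and -0.11, and in the other conditions the 2 strains overlap.

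Other genes of large difference were, like the collagens, higher in JTL621 and variable. grd-6, a hedgehog-related gene, had 11.5, 12.57 and 14.8 CPM in JTL621, against 5.11, 0.188 and 3.09 CPM in CA1199. Its log2 difference of 2.17 was the largest of all genes (95% interval 0.28 to 4.06, unadjusted p = 0.0266), and it was 1.41 in the other conditions (adjusted p = 0.438). Y47D7A.13 had 71.6, 80.1 and 118 CPM in JTL621, against 42.8, 6.95 and 30.7 CPM in CA1199 (log2 difference 2.00). On the lower side, among genes without overlap that averaged 5 CPM or more in either strain, C04G6.6 came after H11L12.1 and T10D4.6, with 7.14, 5.03 and 5.01 CPM in JTL621, against 9.69, 9.76 and 8.35 CPM in CA1199. Its log2 difference was -0.62 (unadjusted p = 0.00247) and -0.13 in the other conditions (adjusted p = 0.869).

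Of the 3 lists of detoxification genes, 2 leaned toward JTL621. Of 52 UDP-glucuronosyltransferase genes, which conjugate small molecules, 14 (26.9%) were higher without overlap and 0 lower, beside 4.72% and 2.66% of all genes, with a median log2 difference of 0.17. Of 44 cytochrome P450 genes, 9 (20.5%) were higher without overlap and 0 lower, with a median of 0.18. At an unadjusted p under 0.05 limma gave 8 higher members and 0 lower, beside 1.24% and 0.483% of all genes. Of 28 glutathione S-transferase genes, 2 (7.14%) were higher without overlap and 0 lower, with 16 positive, a median of 0.05 and 0 members at an unadjusted p under 0.05. On the deposited scales 13 of these 28 were positive. Under the other scalings 9 to 12 glucuronosyltransferase genes and 6 to 8 P450 genes were higher without overlap, and again 0 lower. Of all 12218 to 12221 genes, 377 to 511 were higher and 365 to 648 lower under those scalings. The P450 gene cyp-35A2 had 40.0, 33.1 and 31.9 CPM in JTL621, against 25.6, 14 and 18.8 CPM in CA1199 (log2 difference 0.85, SE 0.28, unadjusted p = 0.00562). ugt-9 had 4.14, 3.9 and 3.43 CPM in JTL621, against 2.14, 1.56 and 3.03 CPM in CA1199 (log2 difference 0.59, unadjusted p = 0.00552). In the other conditions these differences were 0.33 for cyp-35A2 and 0.02 for ugt-9, and no member of the 3 lists was called. The list medians there were 0.17 for the glucuronosyltransferases, 0.12 for the P450 genes and 0.02 for the glutathione S-transferases.

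Genes of protein folding in the endoplasmic reticulum were all fitted higher in JTL621, though by small amounts. The 19 genes had differences between 0.02 and 0.32, a median of 0.09, and 4 members (21.1%) higher without overlap, beside 4.72% of all genes. The ER Hsp40 gene dnj-7 had 42.8, 42.7 and 44.4 CPM in JTL621, against 33.8, 31.7 and 38.3 CPM in CA1199 (log2 difference 0.32, unadjusted p = 0.0423). The peroxisomal catalase gene ctl-2, from the list of metal and oxidative stress, had 56.5, 67.3 and 69.2 CPM in JTL621, against 37.2, 50.6 and 43.6 CPM in CA1199 (log2 difference 0.55, unadjusted p = 0.00498). On the deposited scales 14 of the 19 folding genes were positive, with a median of 0.04. There 2 members were higher without overlap, beside 377 of all 12219 genes. Intestine markers moved with these lists. All 11 were fitted higher (10 of 11 on the deposited scales and with total reads), with a median of 0.17 and a summed level of 4513 to 5919 CPM in JTL621 and 3788 to 5385 CPM in CA1199, and their part in the result was not tested. Epidermis markers had a median of 0.03, which was below 0 on the deposited scales and with quantile normalisation. In the somatic pair, JTL611 minus CA1200, the intestine median was 0.11 (10 of 11 positive) and that of the folding genes 0.07 (12 of 19). Glucuronosyltransferases had a median of 0.06 there (34 of 50 positive), P450 genes 0.07 (23 of 41) and glutathione S-transferases -0.05 (9 of 29). All genes had 0.0066.

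**Figure D5:**
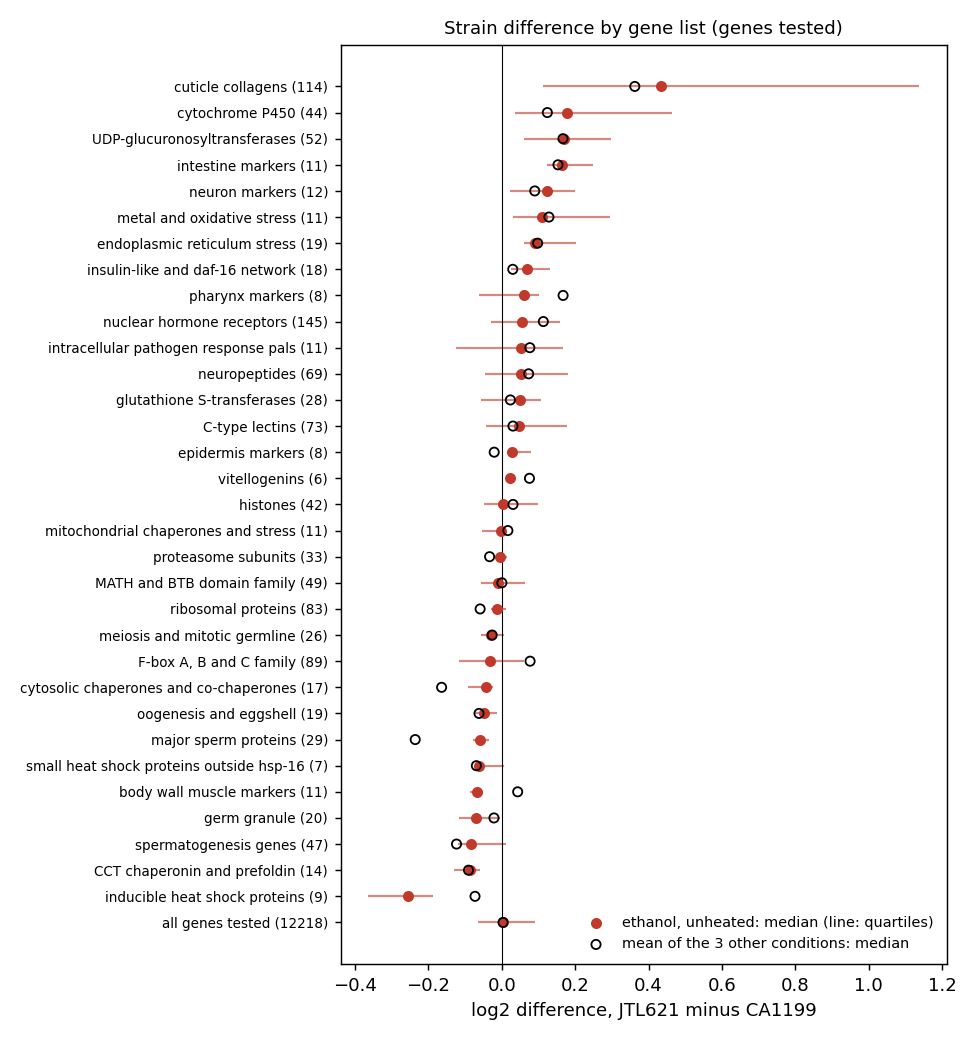
Median log2 difference, JTL621 minus CA1199, of each gene list, with the number of genes tested in brackets. Red points are the unheated ethanol libraries with lines over the quartiles, and open points are the mean of the 3 other conditions. Cuticle collagens stand at 0.43 and 0.36, and the glucuronosyltransferase and P450 lists between 0.12 and 0.18. The red points of the germline lists lie between -0.08 and -0.03. The open points of the major sperm proteins (-0.24) and spermatogenesis genes (-0.12) lie lower.

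By chromosome, the share of genes higher without overlap was 8.42% on X (134 of 1592) and 6.14% on V, against 2.36% on chromosome I, which carries hsf-1. The share lower without overlap was 1.51% on X, 2.29% on V and 3.40% on I. These shares depend on the scale: on the deposited scales 4.84% of X genes were higher and 2.39% lower, 4.44% of V genes were higher and 4.53% lower, and 1.70% of genes on I were higher and 6.66% lower. The median log2 difference of X genes was 0.07, 0.06 above that of all genes, and lay 0.06 above it under each of the 3 other scalings as well. It was 0.06 on X when collagens were left out. In the mean of the other conditions the X median was 0.04, and in the somatic pair it was 0.04. Close to the tagged gene, 17 other genes within 50 kb of hsf-1 had 0 members without overlap and differences between -0.16 and 0.22. Within 1000 kb, 3 of 174 genes were higher and 7 lower without overlap, beside 4.72% and 2.66% of all genes, and the lower share of all genes depends on the scale as given above.

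The difference was set against that of the somatic pair on unheated ethanol, where the same tag is combined with another TIR1 transgene. By limma over 48 libraries and 11993 genes, 0 genes (0%) differed between the germline pair difference and the somatic pair difference at an adjusted p under 0.05, with 101 (0.842%) at an unadjusted p under 0.05, and limma-voom also called 0. The smallest adjusted p was 0.0779. The somatic pair itself had 3 called genes (0.025%), and in the germline pair these had differences of -0.01 for WBGene00014954, -0.14 for WBGene00014955 and -0.15 for Y102A5C.36. A p that misses the threshold does not show that the 2 pairs behave alike.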

How the data were processed

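The submitters' processing notes name STAR, featureCounts, edgeR and the builds WBcel235 and ce11, without versions or roles. The authors deposited 1 table per strain of log2 CPM values, each normalised separately. Removing the log and an offset of 2 reads gave whole reads for 100% of values (tolerance 0.05). The 2 tables were put on a common scale by the median ratio over shared genes. Low genes (mean under 1 CPM across 24 libraries) were left out. The test was limma (version 3.58.1, R 4.3.3), two-sided, with 8 group means and an intensity trend, applied to log2 values after adding 1 CPM. Calls needed a Benjamini-Hochberg adjusted p under 0.05. The somatic comparison used 48 libraries and 16 group means. Fold changes of low genes are understated by the pseudocount.

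The members and lists were chosen with earlier results of these data known. The fixed rule named called genes. Since none was called, hsf-1, sun-1, unc-119 and cTel55X.1 were named by it, and the same ranks without the call, and all other names, were chosen after the values were seen. Same-numbered libraries of the 2 groups deviated together (correlations 0.339 to 0.446 for 3 pairs, the other pairings being below 0), a pattern of the values and not of the labels. Names and positions came from Ensembl release 115 (WBcel235). The authors' own comparison tables were not used. Alternatives were other scalings, pseudocount, filters, limma-voom, other sets of libraries and a replicate block.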

Additional observations from a re-analysis of the deposited data

How the results depend on the processing

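On unheated ethanol limma called 0 genes under all 12 alternatives, the replicate block among them (0 called, smallest adjusted p = 0.137, and 0 when the block was fitted to the 6 libraries alone), and 0 when any 1 library was left out. The collagen median kept its sign, at 0.38 to 0.44 under the other settings and 0.28 to 0.51 when 1 library was left out. The differences of sdc-3, H11L12.1 and T10D4.6 kept their direction under every setting tried, between 0.96 and 1.31, -1.25 and -0.82, and -1.17 and -0.75. Their smallest adjusted p by limma was 0.0524, 0.0598 and 0.0598, with the block fitted to the 6 libraries alone, and did not pass. The germline pair minus the somatic pair called 1 gene on the deposited scales and 0 to 1 when 1 library was left out. For the other conditions, the counts moved more. On unheated auxin, 1 gene became 0 with quantile normalisation, limma-voom, the libraries compared alone, the unheated libraries alone and the replicate block, and 0 to 5 without 1 library. After heat shock on ethanol, 5 genes became 8 on the deposited scales, 2 with a pseudocount of 0.5 CPM, 2 with a filter of 5 CPM, 2 with limma-voom, 0 with the libraries compared alone and 11 without the library richest in ribosomal RNA, and 1 to 6 without 1 library. After heat shock on auxin, 8 genes became 5 with that pseudocount, 4 with that filter, 3 with limma-voom, 1 with the libraries compared alone and 3 without the library richest in ribosomal RNA, and 0 to 8 without 1 library. The mean of the 3 other conditions called 20 genes with that filter, 23 with limma-voom and 22 with the libraries compared alone, and 26 to 112 without 1 library. The cause was not tested. Same-numbered libraries did not all deviate together in the other strain contrasts, so their numbers were not read as pairs.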

Other observations

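The level of sun-1 separated the germline strain pair from the somatic strain pair. The 24 libraries of JTL621 and CA1199, which carry the sun-1 promoter transgene, held 73.4 to 95.9 CPM of sun-1, and the 24 libraries of JTL611 and CA1200 held 101 to 125 CPM, without overlap. The deposited CPM values of the 4 strains were put on 1 scale by median ratios. This pattern was seen in the data first and was not tested further. The TIR1 transgene, the strain background and any difference in handling cannot be told apart here. Any transgene reads that match sun-1 would be counted with it.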
